A study of Ogataea parapolymorpha with 2 samples.

Results

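The Hsp70 chaperone family was taken here as the genes that the deposited count table assigns to the orthologous group COG0443, the group of DnaK-type Hsp70 proteins. This identifier was carried by 2 of the 5408 rows, HPODL_00575 and HPODL_02450. RNA came from Ogataea parapolymorpha strain DL-1, a thermotolerant methylotrophic yeast that the labels call Hansenula polymorpha, with the genotype leu- in both libraries. Cells were grown in rich glucose medium (YPD) at 37 °C to an optical density of 1.0. A portion was harvested untreated and gave 1 library. The rest received 20 mM caffeine for 2 h and gave the other library. No untreated cells kept for the same 2 h are described, so that caffeine and time in culture cannot be told apart. Since each group holds 1 library, no difference below has been checked in replicates, and none was tested. Folds are caffeine over untreated, with libraries scaled by the TMM method (a trimmed mean of gene-wise log ratios), and intervals are exact 95% intervals that cover counting error only. The libraries held 19184978 untreated and 17789838 caffeine-treated counts.

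Hsp70 proteins bind exposed hydrophobic stretches of unfolded or newly made proteins and release them in a cycle of ATP binding and hydrolysis. J-domain proteins deliver clients and speed up the hydrolysis, nucleotide exchange factors open the cycle again, and clients can pass on to Hsp90 or, from aggregates, through Hsp104-type disaggregases. In budding yeast separate Hsp70 proteins serve the cytosol, the ribosome, the endoplasmic reticulum and the mitochondrion, some made at all times and some in response to heat. The tables used here give neither symbols nor products, so that the compartment of HPODL_00575 and HPODL_02450 is not named. Whether other rows, listed under other identifiers or none, encode further Hsp70 proteins was not determined.

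The 2 genes differed in level without caffeine and moved to opposite sides of 0 with it. HPODL_02450, the scarcer gene in untreated cells at 37 °C, stood 3.92-fold higher in the caffeine-treated library. HPODL_00575, the abundant gene, stood 1.32-fold lower. The abundance gap between them, per length, was 5.19 times smaller after caffeine, and the counts of both genes together differed little between the libraries.

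HPODL_02450 spans 1938 bases, from 95197 to 97134 in the deposited coordinates. The contig column is empty and the strand column holds the same sign in all 5408 rows, so that neither places or orients the gene. An unspliced reading frame of that span would hold 645 codons before the stop. It had 533 counts in the untreated library (exact Poisson interval 489 to 580) and 2256 in the caffeine-treated library (2164 to 2351). As TMM-scaled CPM, a count taken relative to the library total, its level went from 30.0 (27.5 to 32.6) to 117.6 CPM (112.8 to 122.5), so that the counting intervals lay far apart. The log2 fold was 1.97 (1.84 to 2.11), a 3.92-fold difference (3.57 to 4.32). This was the 72nd highest of the 4861 compared genes, those that code for protein and reached 10 CPM in 1 library or both, and 98.5% of them lay below it. The deposited RPKM, a level relative to gene length and library total, was 15.8 in untreated and 71.8 in caffeine-treated cells. In untreated cells 4482 of 5325 protein-coding genes had a higher RPKM than HPODL_02450, and 2420 did after caffeine. The gene thus went from the lower ranks of the transcriptome at 37 °C to near its middle.

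HPODL_00575 spans 1584 bases, from 727466 to 729049, room for 527 codons before the stop if unspliced. It had 11154 counts (10948 to 11363) in the untreated and 9105 (8919 to 9294) in the caffeine-treated library. Its scaled level went from 627 (615 to 639) to 475 CPM (465 to 484). The log2 fold was -0.40 (-0.44 to -0.36), within 2-fold, and 1000th from the lowest of the compared genes. The deposited RPKM was 413 without and 363 with caffeine. In untreated cells 402 genes had a higher RPKM and after caffeine 484, so that the gene stayed among the more abundant transcripts in both libraries.

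**Figure D1:**
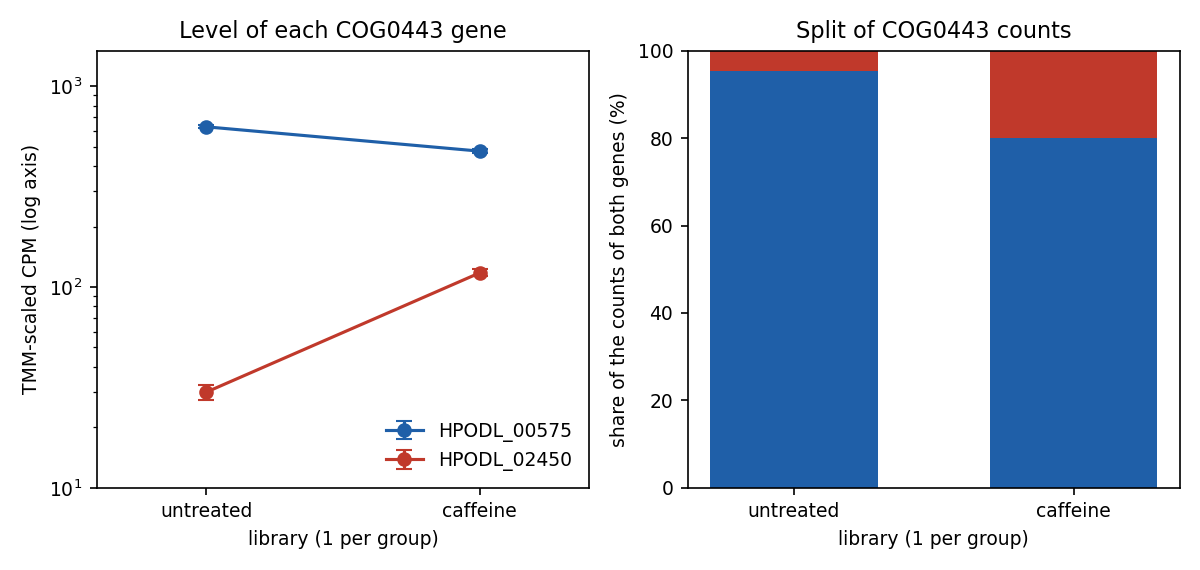
The left panel plots the TMM-scaled CPM (log axis) of the 2 COG0443 genes in the untreated and the caffeine-treated library, with exact 95% Poisson intervals. The right panel stacks each gene's share (%) of the counts of both genes. HPODL_02450 goes from 30.0 to 117.6 CPM and from 4.56% to 19.9% of the pair's counts, while HPODL_00575 stays the larger part in both libraries.

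Of the 2 members 1 was at least 2-fold higher and 0 were at least 2-fold lower. Among all 4861 compared genes 7.12% passed 2-fold upward and 5.27% downward. At 1.5-fold the members counted were again 1 higher and 0 lower, beside 16.5% and 13% of compared genes. The midpoint of the 2 log2 folds was 0.79, and it describes neither gene. The median over all compared genes was 0.01. HPODL_02450 lay just below 4-fold, a level that by TMM 1.38% of compared genes passed upward and 1.03% downward. With library totals in place of TMM, which adds 0.22 to every log2 fold, it passed that level at 2.19, and HPODL_00575 stood at -0.18. The share of all compared genes past 4-fold with library totals was not computed.

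The contrast between the 2 genes needs no scaling of the libraries, since both were counted in each. The fold of HPODL_02450 exceeded that of HPODL_00575 by a factor of 5.19 (exact interval of the count odds ratio 4.70 to 5.73), or 2.37 log2 units. HPODL_02450 made up 4.56% (Clopper-Pearson interval 4.19 to 4.95) of the counts of both genes in untreated cells. After caffeine its share was 19.9% (19.1 to 20.6), and the intervals were well separated. Per length, by deposited RPKM, HPODL_00575 was 26.2 times as abundant as HPODL_02450 without caffeine and 5.05 times as abundant with it. Counts summed over both genes were 11687 in the untreated and 11361 in the caffeine-treated library, or 657 (645 to 669) and 592 CPM (581 to 603). The log2 fold of that sum was -0.15 (-0.19 to -0.11), and it was 0.07 with library totals, so that its sign follows from the scaling. HPODL_00575, with most of the counts, set that value.

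**Figure D2:**
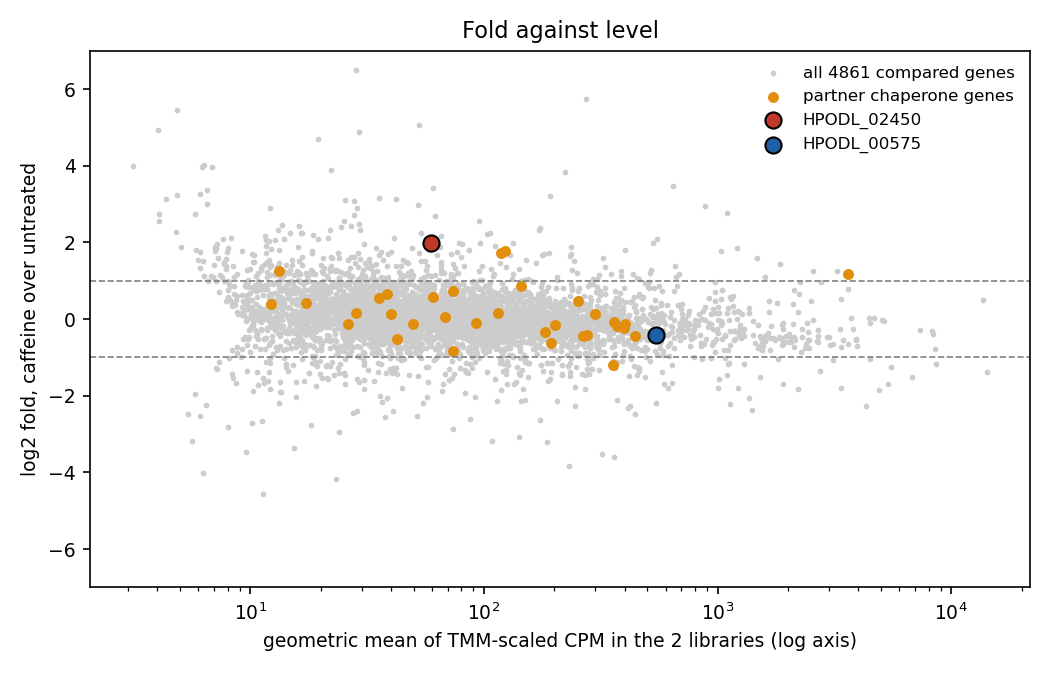
Each point is a compared gene, with the geometric mean of its TMM-scaled CPM in the 2 libraries on the x axis (log axis) and its log2 fold, caffeine over untreated, on the y axis, and dashed lines at 2-fold. Partner chaperone genes are orange. HPODL_02450, at 1.97, lies above the upper dashed line, and HPODL_00575, at -0.40, lies between the dashed lines with most genes.

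Genes that work with Hsp70 were taken from 14 orthologous groups, which held 34 genes, of which 33 were compared. Of these 4 were at least 2-fold higher, 1 was at least 2-fold lower and 28 were within 2-fold, shares of 12.1% higher and 3.03% lower beside the 7.12% and 5.27% of all compared genes. Their median log2 fold was 0.06, beside 0.01 over all compared genes. The 4 higher genes were the Hsp90 gene, an Aha1-type gene, a gene of the Hsp104 and ClpB group and a small heat shock protein gene. The lower gene was the other one of the Hsp104 and ClpB group. With library totals 5 were higher and 0 lower, beside 564 and 175 of all 4861 compared genes. With 5 CPM added to both libraries 3 were higher, since the small heat shock protein gene HPODL_03869 then stood at 0.91.

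The J-domain proteins, the direct partners that set the pace of the Hsp70 cycle, showed no gene past 2-fold among 12 compared. Of all compared genes 7.12% were higher and 5.27% lower, so that 0 of 12 says little about the group. By TMM 6 lay above 0 and 6 below, and with library totals 9 lay above 0. Of all 4861 compared genes 2482 lay above 0 and 2379 below by TMM, and 3308 lay above 0 with library totals. The log2 folds of the J-domain genes ran from -0.83 to 0.66, all below the 1.97 of HPODL_02450, as were 98.5% of all compared genes. In the DnaJ-type group (COG0484) the highest gene was HPODL_03796 at 0.57 (0.45 to 0.69), with 880 and 1408 counts. The lowest was HPODL_04260 at -0.83 (-0.94 to -0.72), with 1749 and 1061 counts. In the other DnaJ-related group (COG2214) the values ran from -0.13 (-0.27 to 0.00) for HPODL_00844 to 0.66 (0.51 to 0.82) for HPODL_02243. One more gene of that group, HPODL_03814, had only 25 and 58 counts and was not compared.

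HPODL_03842 belongs to the zuotin group (COG5269), named for a ribosome-bound J-domain protein of budding yeast. It had 9212 counts without and 7288 with caffeine, a log2 fold of -0.45 (-0.49 to -0.40). Its deposited RPKM was 441 and 375, beside 413 and 363 for HPODL_00575. The ratio of the folds, HPODL_00575 over HPODL_03842, was 1.03 (0.99 to 1.08). Ratios as near to 1 were found for partners of other roles, with 1.01 (0.96 to 1.06) for HPODL_00106 of the heat shock factor group and 1.03 (0.98 to 1.08) for the chaperonin gene HPODL_04238. The Sec63-type gene HPODL_04143 (COG5407), from the group of the J-domain protein of the endoplasmic reticulum translocon, stood at -0.09 (-0.14 to -0.04). The GrpE-type gene HPODL_04442 (COG0576), of the group that holds the nucleotide exchange factor of bacterial and mitochondrial Hsp70, stood at -0.62 (-0.69 to -0.55).

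Hsp90, which takes over clients such as kinases and receptors from Hsp70, has a single gene by COG0326, HPODL_01825. Its level was 1161 RPKM without and 3028 with caffeine, with a log2 fold of 1.17 (1.15 to 1.18). It was 73.6 times as abundant per length as HPODL_02450 without caffeine and 42.2 times with it. The fold of HPODL_02450 exceeded that of Hsp90 by a factor of 1.75 (1.59 to 1.92), while the fold of HPODL_00575 was 0.337 of it (0.327 to 0.347). Of 2 genes of the Aha1 group (COG5580), which stimulates the Hsp90 ATPase, HPODL_02459 stood at 1.77 (1.68 to 1.87), with 1187 and 4371 counts. The other, HPODL_02087, stood at 0.73 (0.62 to 0.84).

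The Hsp104 and ClpB group (COG0542), ring ATPases that pull proteins out of aggregates together with Hsp70, also held 1 gene past 2-fold upward, its scarcer one without caffeine. HPODL_03269 went from 30.3 to 116 RPKM, with a log2 fold of 1.72 (1.62 to 1.81). HPODL_02027 went from 201 to 101 RPKM, at -1.20 (-1.26 to -1.15), or -0.99 with library totals. HPODL_03269 spans 2169 bases and HPODL_02027 spans 2688, and which of them corresponds to Hsp104 was not determined. The fold of HPODL_02450 exceeded that of HPODL_03269 by a factor of 1.19 (1.06 to 1.34) and that of HPODL_02459 by 1.15 (1.02 to 1.29). These ratios were each computed alone, among 69 such contrasts, and cover counting error only. Small heat shock proteins (COG0071), which hold unfolded proteins without ATP, gave HPODL_03869 at 1.26 (0.99 to 1.54), with 152 and 393 counts, and HPODL_01889 at -0.53 (-0.67 to -0.38).

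Genes with identifiers of the chaperonins, the barrel-shaped folding chambers (COG0459), or of their lid proteins (COG0234) numbered 8. By TMM 0 were past 2-fold, with 4 above 0 and 4 below. All compared genes had shares of 7.12% higher and 5.27% lower, with 2482 above 0 and 2379 below. With library totals 6 lay above 0, and so did 3308 of all 4861 compared genes. The highest in COG0459 was HPODL_04672 at 0.54 (0.38 to 0.70), which also carries a lipid kinase identifier (COG5253). It spans 5082 bases, beside 1581 to 1668 for the other COG0459 genes, so that it may not encode a chamber subunit. The next highest of that group was HPODL_02475 at 0.14 (0.09 to 0.20). The lowest was HPODL_04238 at -0.44 (-0.50 to -0.39). The lid genes HPODL_05216 and HPODL_00997 stood at 0.87 (0.79 to 0.95) and 0.06 (-0.05 to 0.18). With library totals HPODL_05216 passed 2-fold at 1.09. Prefoldin genes, which hand actin and tubulin to the chaperonin, ran from -0.12 (-0.30 to 0.07) for HPODL_00168 to 0.41 (0.18 to 0.64) for HPODL_04383.

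Transcripts of COG5169, the group that holds the heat shock transcription factor, were not higher under TMM. In budding yeast that factor drives Hsp70 genes, and which gene here corresponds to it, if any, was not determined. HPODL_00106 had 5648 counts without and 4578 with caffeine, at -0.41 (-0.47 to -0.36). HPODL_02729, which also carries a response regulator identifier (COG0784), stood at -0.16 (-0.22 to -0.09), or 0.06 with library totals.

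**Figure D3:**
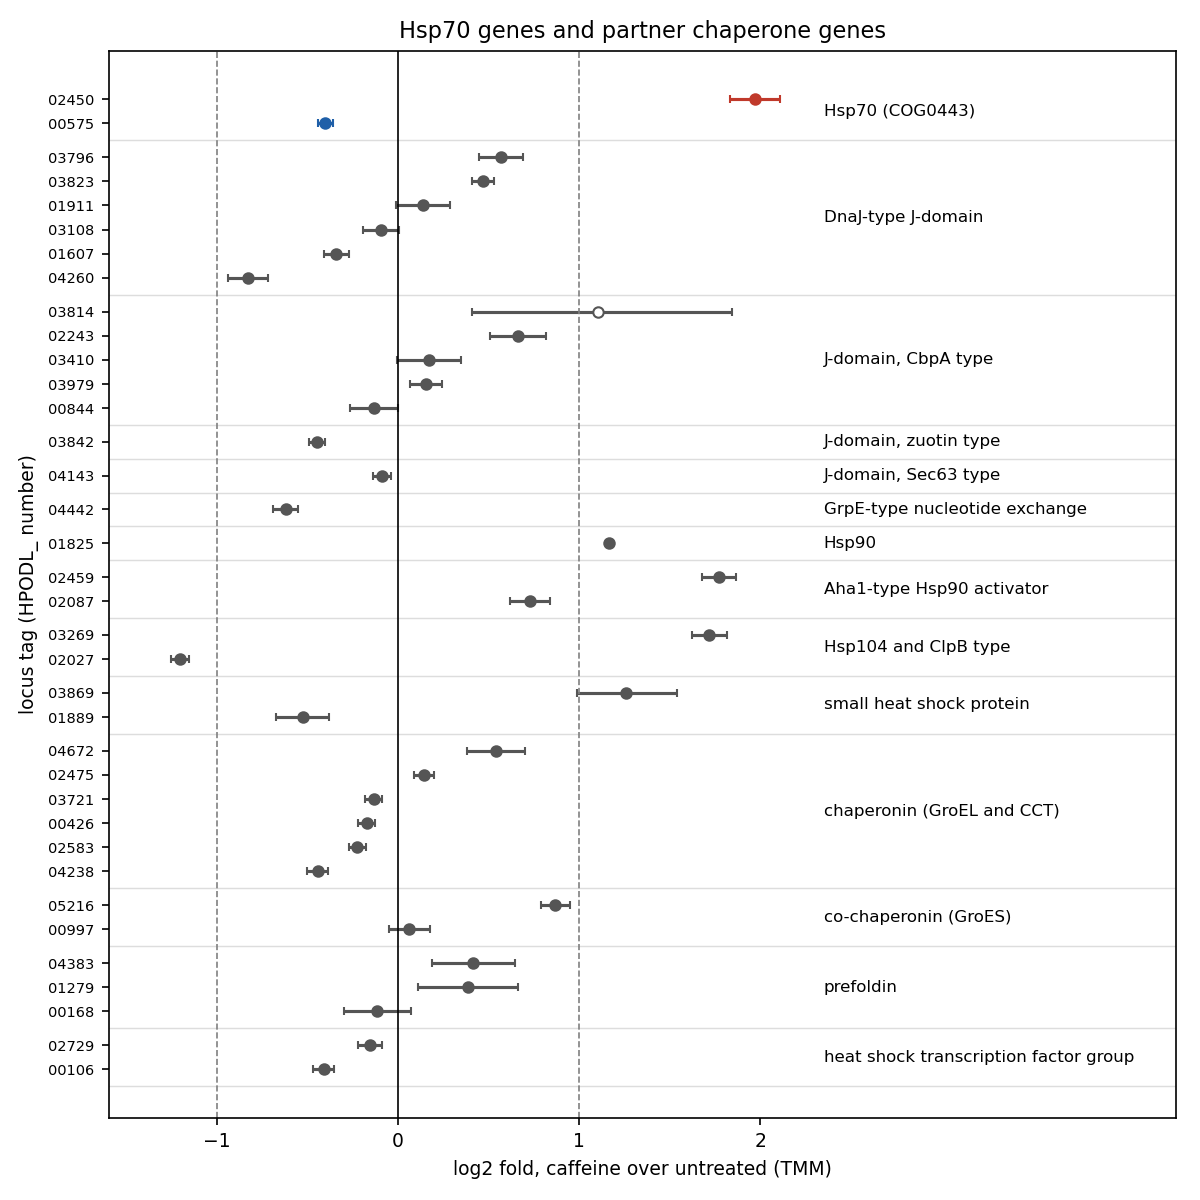
Log2 fold, caffeine over untreated (x axis, TMM), of the 2 Hsp70 genes and 34 partner genes, grouped by role, with exact 95% intervals for counting error and dashed lines at 2-fold. The open circle is the gene too low to be compared. HPODL_02450 at 1.97 is the rightmost point, followed by HPODL_02459 at 1.77 and HPODL_03269 at 1.72, while the J-domain genes that were compared lie between -0.83 and 0.66.

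The fold of HPODL_02450 was not shared by the genes beside it. Of the 6 nearest genes, 3 on each side, every log2 fold lay between -0.39 and -0.08. HPODL_02447, among them, had 185 and 169 counts and was too low to be compared. Only 7.12% of all compared genes passed 2-fold upward, so that neighbours within 2-fold say little. The neighbour at lower coordinates, HPODL_02449, ended 211 bases before HPODL_02450 and stood at -0.11 (-0.23 to 0.01). The neighbour at higher coordinates, HPODL_02451, 73 bases away, stood at -0.39 (-0.47 to -0.31). The listed spans of these neighbours did not overlap it. The Aha1-type gene HPODL_02459 lay on the same chromosome with 9 genes between, an observation made after the values were seen. Of 8 compared genes in that interval 1 was at least 2-fold higher, at 1.35, beside 7.12% of all compared genes. The lowest was at -0.73.

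Around HPODL_00575 the folds were mixed. HPODL_00574, 289 bases away at lower coordinates, stood at -0.89 (-0.95 to -0.84), and HPODL_00576, 116 bases away at higher coordinates, at 0.37 (0.22 to 0.52). The gene beyond HPODL_00574, HPODL_00573, belongs to the aldehyde dehydrogenase group (COG1012) and stood at 1.77 (1.74 to 1.81).

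**Figure D4:**
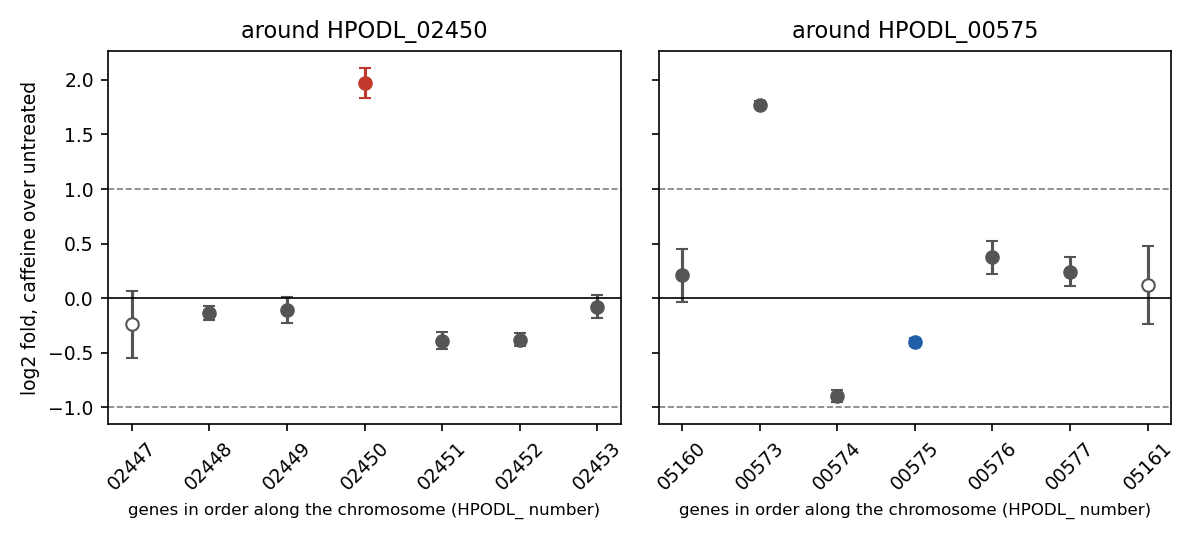
Log2 fold, caffeine over untreated (y axis), of each Hsp70 gene (coloured) and the 3 genes on either side in chromosome order (x axis, even spacing), with exact 95% intervals for counting error and dashed lines at 2-fold. Open circles are genes too low to be compared. HPODL_02450 stands alone at 1.97, while the genes around HPODL_00575 lie on both sides of 0.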

How the data were processed

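Hot-phenol RNA was made into stranded mRNA libraries for paired-end Illumina sequencing, per the labels' protocols. Bowtie2 is named per the submitters' processing notes. No version, counter, annotation, genome build or use of strand in counting is given in the sources used here. The authors deposited a table of raw counts, a table of RPKM values, and counts multiplied by 1 constant per library as a scaled signal (RLE and TMM). Totals were 19184978 counts untreated and 17789838 caffeine-treated. Depth limits precision: intervals cover counting error only, computed as if each read were an independent molecule. PCR reads are not, so that the intervals may be too narrow even for counting error. Variation between cultures is left out.

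Members were found by splitting the COG column. Counts were scaled by TMM in edgeR 4.0.16 (R 4.3.3), with effective totals of 17788292 and 19186645. From the deposited RLE and TMM tables HPODL_02450 gave log2 folds of 1.96 and 1.97, and HPODL_00575 -0.41 and -0.40. Protein-coding genes with at least 10 CPM of library totals in either library were compared. No test was run, since each group has 1 library. Genes past a 2-fold difference were counted instead. Intervals, exact at 95% (SciPy 1.17.1), are Clopper-Pearson for folds and shares, Poisson for counts and CPM, and conditional odds-ratio intervals for ratios of folds. The calculation was tested on simulated Poisson counts. Since the intervals assume the same kind of counting error, that run checks the code and not the variation in these libraries. All 5408 locus tags matched the RefSeq gene table of assembly Hansenula_2, used for gene type and neighbour order only. Sequences of the members were not used here, so that reads shared with similar genes were not checked, nor were protein or promoter features. Every COG0443 gene is named, and in each partner group role the highest and the lowest compared gene. COG functions come from general knowledge. Members and lists were chosen with earlier results of these data known. Library totals and DESeq2 1.42.0 size factors, 5 CPM added to both libraries, no filter, RPKM ratios and thresholds of 1.5- and 4-fold were tried.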

Additional observations from a re-analysis of the deposited data

How the results depend on the processing

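No paired analysis was possible because each group holds 1 library, and for the same reason none could be left out. HPODL_02450 stayed at least 2-fold higher and HPODL_00575 within 2-fold and below 0 under every scaling tried, with 5 CPM added and with RPKM ratios. Library totals and RPKM ratios, which lack the TMM factors, moved HPODL_02450 to 2.19 and 2.19, HPODL_00575 to -0.18 and -0.19, their midpoint to 1.00 and 1.00, their summed counts to 0.068 and 0.018, the partner median to 0.28 and 0.24, and partner genes at least 2-fold lower to 0 and 0. Of all 4861 compared genes 175 were at least 2-fold lower with library totals. With 5 CPM added HPODL_02450 stood at 1.81 and 3 partners were higher. Shares of all compared genes with RPKM ratios or with 5 CPM added were not computed. Without HPODL_00575 the sum is HPODL_02450 alone, at 1.97. At 4-fold by TMM, 0 members and 0 partners were higher and 0 partners lower. Of all compared genes 1.38% were higher and 1.03% lower at that level, so that these counts say little. At 1.5-fold, 7 partners were higher and 3 lower, beside 16.5% and 13% of all compared genes. In all, 32 of the values recomputed stayed within a set range, and 19 did not. That range was the counting interval for folds and 1.5 times for counts. For medians it ran between the medians of the genes' lower and upper interval bounds, which is not an interval of the median itself. Counts at 1.5- and 4-fold are included, where the threshold itself was changed. Depth set the interval of HPODL_02450 mainly through its 533 untreated counts.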

Other observations

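Both Hsp70 genes are filed under COG category O, protein turnover and chaperones, which held 360 compared genes. This comparison was added after the annotation columns were seen. Past 2-fold stood 15 genes upward and 17 downward, 4.17% and 4.72%, beside 7.12% and 5.27% of all compared genes. The median log2 fold was -0.03. With library totals 27 were higher and 8 lower, beside 564 and 175 of all 4861 compared genes. The median was then 0.19, beside 0.23 over all compared genes. HPODL_02450 had the third highest fold of the category, although it ranked 348th of 360 by RPKM in untreated cells and 252nd after caffeine. Ahead of it stood HPODL_03445 at 3.07 (2.85 to 3.31) and HPODL_00862 at 1.99 (1.88 to 2.10), both listed only under NOG identifiers whose function is not named here. The interval of HPODL_00862 overlaps that of HPODL_02450, so that counting error alone does not order them. The Aha1-type gene HPODL_02459 and HPODL_03269 of the Hsp104 and ClpB group came soon after it, at 1.77 and 1.72. HPODL_00575 ranked 289th by fold, and 45th and 63rd by RPKM without and with caffeine. Leaving out the Hsp70 and partner genes, 10 of 330 genes of the category passed 2-fold upward and 16 downward, or 3.03% and 4.85%. With library totals 21 passed upward and 8 downward.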
